A study of Mus musculus with 8 samples.

Results

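The Celf2 locus was described from RNA fragments crosslinked to Ptbp2 in the cortex of mouse embryos. Its tags were those whose midpoint lay on the minus strand of chromosome 2 between positions 6460000 and 7431000 (mm9), an interval of 971 kb that is read from high to low coordinate. It held 15556 of 3098854 tags, and 263 of the 22803 clusters of overlapping tags that reached a height of 10, where height is the largest number of tags over one base. The locus was chosen by its number of clusters, the largest in tags pooled over all libraries, so its density and cluster number are a description and carry no test. In HITS-CLIP, ultraviolet light fixes a protein to the RNA it touches, and after immunoprecipitation the attached RNA fragments are sequenced as tags. Both groups were wild-type CD1 embryos at embryonic day 18.5, 4 libraries from brain 2 and 4 from brain 1. Each brain is 1 animal, so n counts libraries and the spread between them is technical. The titles of the libraries also carry a letter, shared by libraries 1 and 2 and by libraries 3 and 4 of a brain, whose meaning the labels do not give, so the 4 libraries may not be independent of one another. No knockout, other immunoprecipitation or total RNA was analysed here, and more transcript and more binding per transcript cannot be told apart.

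Celf2 encodes an RNA-binding protein of the CUG-binding, Elav-like family, which controls alternative splicing and also acts on messenger RNA in the cytoplasm. It is strongly expressed in the developing brain. Ptbp2, the neuronal polypyrimidine tract binding protein, binds pyrimidine-rich RNA, in particular UCUU and CUCUCU motifs, and mostly represses the exons near which it binds.

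The tags were deposited as positions without their bases, and no sequence of their build was at hand, so the bound sequences are not shown. RefSeq lists 5 start windows for Celf2 on the assembly GRCm38.p6, each reaching from 250 bases before to 50 after an annotated start, and all read from the minus strand. The windows are shown for the letters that Ptbp2 is known to prefer. Each TCTT and CTCTCT of the sense strand is in capitals, where overlapping matches run together. The 250 bases before a start are not part of RNA made from that start, so a match there is not a site in that RNA. The window of the start furthest downstream was the richest in pyrimidines, with 63.3% C or T and 3 TCTT matches, all of them before the start. The second window from the upstream side had 53.3% C or T, 2 overlapping TCTT matches and 1 CTCTCT match.
Celf2 start window 5, chr2:6721613-6721912 (GRCm38.p6, minus strand): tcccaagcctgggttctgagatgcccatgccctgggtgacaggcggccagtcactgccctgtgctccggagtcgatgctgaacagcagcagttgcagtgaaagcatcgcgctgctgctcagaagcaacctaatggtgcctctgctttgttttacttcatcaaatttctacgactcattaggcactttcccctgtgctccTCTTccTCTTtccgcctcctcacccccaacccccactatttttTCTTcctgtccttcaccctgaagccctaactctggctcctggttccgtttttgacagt
Celf2 start window 2, chr2:7395951-7396250 (GRCm38.p6, minus strand): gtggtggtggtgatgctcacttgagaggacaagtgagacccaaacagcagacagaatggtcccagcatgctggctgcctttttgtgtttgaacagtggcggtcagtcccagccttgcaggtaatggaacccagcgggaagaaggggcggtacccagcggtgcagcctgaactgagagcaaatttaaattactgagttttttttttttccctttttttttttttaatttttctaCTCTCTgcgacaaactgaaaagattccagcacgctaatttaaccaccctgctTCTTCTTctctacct
TCTT was found on the sense strand of 3 of the 5 windows, against 69.9% of 32851 mouse start windows, and CTCTCT on 1 of 5, against 14.1%. On either strand those shares of all windows were 89.1% and 27.6%. The median pyrimidine content over all windows was 49.7%, and the other 3 Celf2 windows held between 37.7% and 45.0%. Positions on this assembly differ from those of the tags, so no tag was placed on these letters.

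The 8 libraries held between 228424 and 545387 tags, 1165859 in brain 2 and 1932995 in brain 1. The locus took 0.502% of all tags (exact 95% interval 0.494 to 0.510%, which covers counting error only). In counts per 1000000 tags of the library (CPM) it held 3964, 4092, 4480 and 5161 in brain 2, against 5811, 5499, 5195 and 5038 in brain 1. Library 4 of brain 2 lay among the libraries of brain 1, above its library 4, while the other 3 lay below all of them. The means were 4424 ± 538 CPM in brain 2 and 5386 ± 342 CPM in brain 1 (SD, n = 4 libraries each), a difference of -961 CPM (two-sided exact permutation p = 0.0571, n = 4 each; the smallest possible p is 0.0286). Scaling the libraries by a trimmed mean of log ratios over all windows narrowed the spread, to 4693 ± 140 CPM in brain 2 and 5046 ± 117 CPM in brain 1. All libraries of brain 2 then lay below all of brain 1 (exact permutation p = 0.0286, the smallest possible for n = 4 each). Without library 4 of brain 2, the one that lay among those of brain 1, the difference was -1207 CPM (n = 3 and 4). The exact permutation p was then 0.0286, the smallest possible, which leaving out that library fixed in advance. Leaving out any other library gave an exact permutation p between 0.0571 and 0.0857. After libraries of one letter were summed, the difference was -998 CPM and the exact permutation p 0.333, the smallest that 2 against 2 allows.

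Celf2 was also set against the other loci with many clusters. Neighbouring clusters of a strand were linked into groups where no more than 20 kb lay between them, and 181 groups outside the locus held 10 or more clusters. Those groups together took 6.04 ± 0.744% of the tags in brain 2 and 6.82 ± 0.354% in brain 1 (SD over n = 4 libraries; the exact permutation p was 0.114). Set against them, Celf2 had 7.11, 7.64, 7.20 and 7.36 tags per 100 tags of the other groups in brain 2, against 8.16, 7.70, 7.94 and 7.76 in brain 1. No library of brain 2 reached the lowest of brain 1, although library 2 of brain 2 and library 2 of brain 1 were close (exact permutation p = 0.0286, n = 4, the smallest possible). This denominator was chosen after the data were seen. On the log2 scale the locus differed by -0.29 between the brains (brain 2 minus brain 1), the median of the 181 groups was -0.23, and 62 groups had a difference at least as negative. The groups whose log2 CPM followed that of Celf2 most closely over the 8 libraries lay on chromosome 18 minus strand (31 clusters, Pearson r = 0.96), on chromosome 16 plus strand from 6809381 to 7201718 (93 clusters, r = 0.96) and on chromosome 1 minus strand from 179125291 to 179176757 (20 clusters, r = 0.95). The median r over the 181 groups was 0.76. These values describe libraries that share depth and animal and carry no test.

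Tags of the locus were nearly all on the strand that Celf2 is read from. The opposite strand of the same interval held 139 tags, 0.886% of the tags of both strands (exact 95% interval 0.745 to 1.04%). Per kb, the locus held 16.02 tags and its opposite strand 0.143 (Poisson intervals 15.8 to 16.3 and 0.120 to 0.169), a density 111.9 times as high. Stretches of the same length on the minus strand held 388 tags upstream and 979 tags downstream, or 0.400 and 1.01 tags per kb. The opposite strand took 1.76, 1.25, 1.10 and 0.674% of the tags in brain 2, against 0.814, 0.435, 0.666 and 1.05% in brain 1. These ranges overlapped (1.20 ± 0.448% in brain 2 and 0.740 ± 0.257% in brain 1, with exact permutation p = 0.114 for n = 4). A single cluster of height 10 or more lay on the opposite strand, against 263 on the Celf2 strand, 6 in the upstream flank and 5 in the downstream flank.

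**Figure D1:**
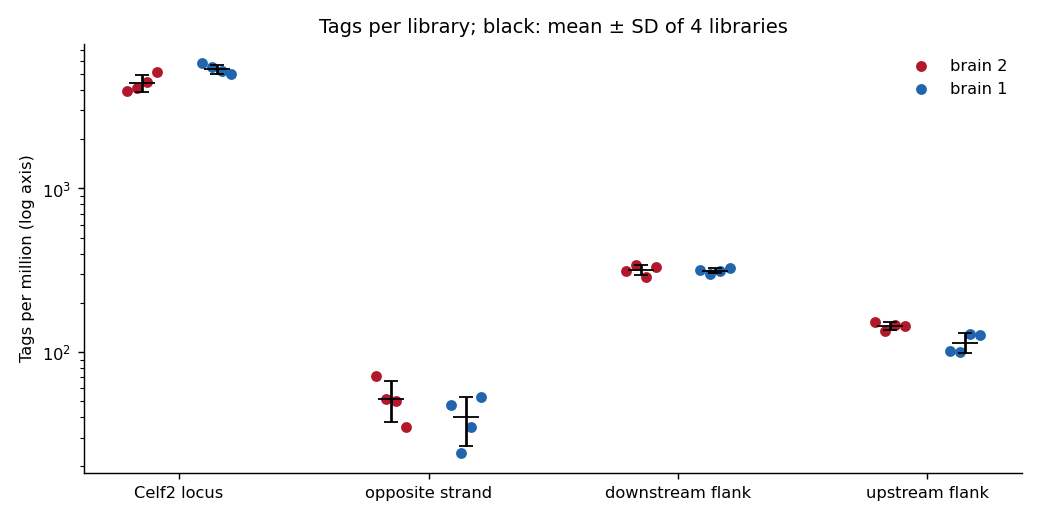
CPM on a log axis in each library for the Celf2 locus, its opposite strand and the minus-strand flanks of equal length, with brain 2 in red, brain 1 in blue and the mean ± SD of 4 libraries in black. The locus lies between 3964 and 5811 CPM in the 8 libraries, and the highest library of the other regions is at 340.2 CPM.

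The downstream edge of the tagged stretch was abrupt, in intervals laid out after the counts were seen. The last 10 kb inside the lower bound held 509 tags and the first 10 kb outside it 4. From 6461000 to 6466999 there were 438 tags, of which 203 fell within the single kb from 6466000, against 2 tags in the 6 kb below 6460000. The upper bound was set beyond the tags, with 2 tags in the last 10 kb inside and 1 in the first 10 kb outside. Tags became frequent about 110 kb inside it, where the 50 kb from 7270000 held 479 tags and the next 50 kb upstream 34.

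Density was uneven along the gene and highest toward its 3′ side. From 7281001 to 7331000, the first well-tagged 50 kb, there were 7.04 tags per kb, and the 50 kb steps that followed held between 3.38 and 10.3 tags per kb down to 6881001. The density then climbed within a short distance. In the 10 kb centred 625 kb from the upper bound the locus held 47.8 ± 16.7 CPM in brain 2 and 71.1 ± 12.2 CPM in brain 1, and in the next 10 kb it held 226 ± 25.5 CPM in brain 2 and 195 ± 19.2 CPM in brain 1 (SD, n = 4). The fullest 50 kb, from 6731001 to 6781000, had 51.4 tags per kb and 16.5% of all tags of the locus. Further toward the 3′ end the density was between 19.3 and 38.8 tags per kb.

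**Figure D2:**
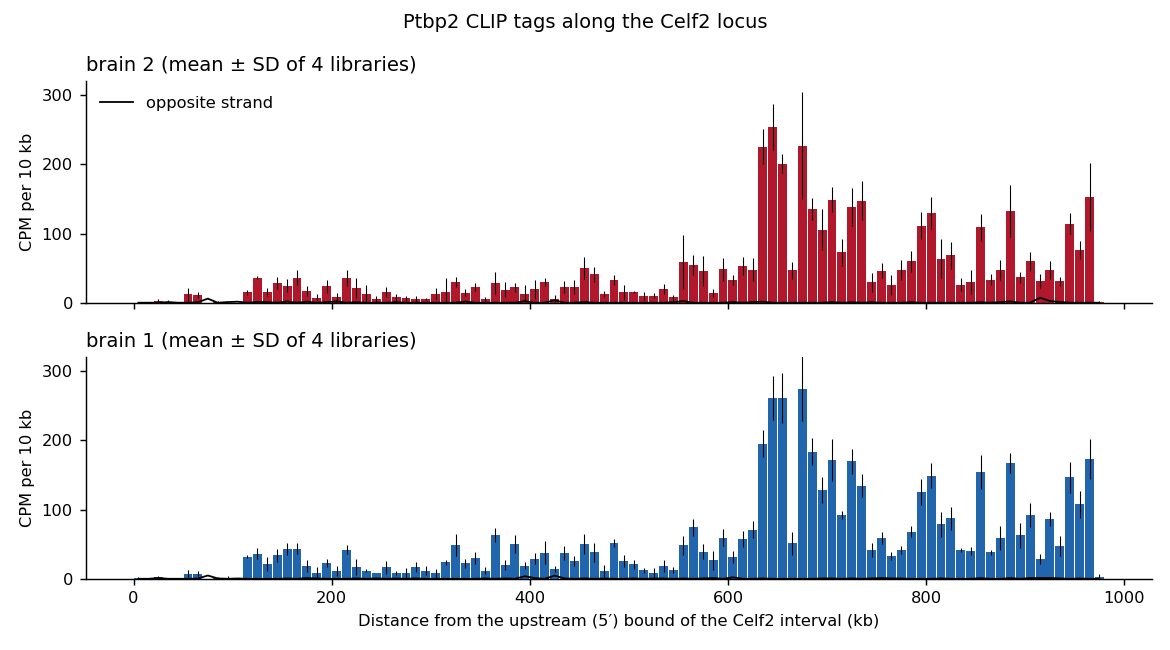
CPM in steps of 10 kb from the upstream bound of the interval to its downstream bound, brain 2 above and brain 1 below (mean ± SD of 4 libraries), with the opposite strand as a black line. Both brains show low density up to about 630 kb, the highest bars just beyond, and almost no tags on the opposite strand.

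The dense part was bounded by the largest linked group of clusters, from 6461055 to 6900698. It covered 440 kb and held 225 clusters and 28.4 tags per kb, while the 530 kb upstream of it held 38 clusters and 5.81 tags per kb. The dense part took 82.5, 78.3, 81.8 and 81.8% of the locus tags in brain 2, against 80.2, 80.1, 79.2 and 78.99% in brain 1, so the brains overlapped. The median tag lay 682, 679, 682 and 682 kb from the upper bound in brain 2, against 683, 682, 684 and 682 kb in brain 1. Those medians averaged 681.3 ± 1.57 kb in brain 2 and 682.7 ± 0.772 kb in brain 1, a difference of -1.46 kb (exact permutation p = 0.171, n = 4), which was -0.686 kb without library 2 of brain 2. With the tags of clusters left out they averaged 665 ± 9.38 kb in brain 2 and 678 ± 4.42 kb in brain 1, a difference of -12.98 kb (exact permutation p = 0.0571, n = 4). Counts per step were alike between the brains: over 98 steps of 10 kb the tags of brain 2 and brain 1 had a Pearson r of 0.98 and a Spearman rho of 0.97. Over 9711 steps of 100 nt, of which 68.4% were empty in both, r was 0.88 and rho 0.53. The steps share the transcript and its abundance, so these correlations describe the profile and were not tested.

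Clusters made up much of the signal in Celf2. They held 50.6% of its tags, against 15.7% over the whole series. By library they held 52.1, 49.9, 50.6 and 54.0% in brain 2, against 49.7, 50.6, 52.2 and 48.4% in brain 1, with overlapping ranges (51.6 ± 1.84% in brain 2 and 50.2 ± 1.59% in brain 1; the exact permutation p was 0.286, n = 4). Pooling gives the deeper brain 1 more weight in where clusters are called. The median height was 17, against 14 for all clusters, and 43.3% of Celf2 clusters reached a height of 20, against 26.1% of all. Heights of 10 to 19 were seen in 149 clusters, 20 to 49 in 86, 50 to 99 in 21 and 100 or more in 7. All 7 of the tallest class lay in the dense part. The median width was 55 nt, against 42 nt in the series, and the widest cluster, from 6699181 to 6699436, named after its values were seen, spanned 256 nt with 58 tags in brain 2 and 90 in brain 1. In the next largest linked groups, on chromosomes 16, 11 and 6, clusters held 37.3, 45.5 and 36.3% of the tags, against 56.0% in the dense part. Their median width was 51, 51 and 49 nt, against 56 nt, and their median height 14, 16 and 14, against 17.

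Clusters stood close to one another. Another Celf2 cluster lay within 1000 nt for 196 of 263 (74.5%), while among 22432 clusters outside the locus 20.02% had a neighbour that near on their strand. The median gap between neighbours was 721 nt, with quartiles of 204 and 3004 nt, and 64 of 262 gaps were under 200 nt. The widest gap was 85.1 kb. The longest run without a gap over 1000 nt held 22 clusters and 776 tags in 9.64 kb, from 6776537 to 6786178.

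**Figure D3:**
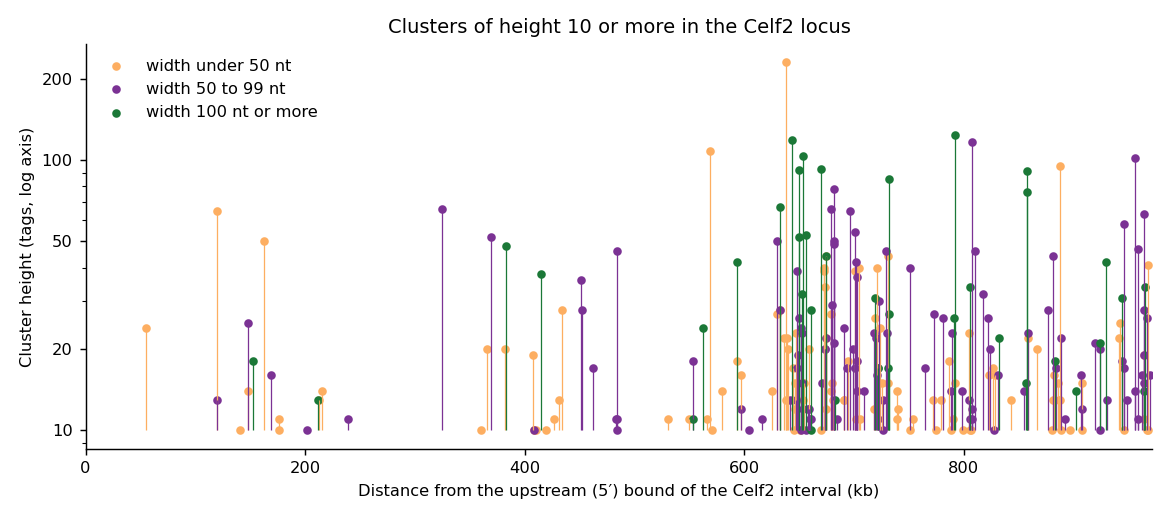
Height of each of the 263 clusters on a log axis against its distance from the upstream bound, coloured by width. The clusters crowd together beyond about 630 kb, where the tallest reaches 230 tags, and 38 clusters lie upstream of the dense part.

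The next largest linked groups were set beside the dense part of Celf2, which had 51.2 clusters per 100 kb. The group on chromosome 16 plus strand, from 6809381 to 7201718, had 23.7 per 100 kb, that on chromosome 11 minus strand, from 36386301 to 36694373, had 24.99, and that on chromosome 6 minus strand, from 77244300 to 77541943, had 24.5. The median gap between clusters was 580 nt in the dense part, against 1903, 2598 and 1766 nt in those groups. Tag density was 28.4 per kb, against 12.5, 16.4 and 13.4. Bases covered by at least 1 tag made up 20.9% of the dense part, against 13.7, 15.04 and 14.3%. In height the order differed, since the chromosome 11 group held a cluster of 429, above the tallest of Celf2 at 230. Brain 2 was below brain 1 in mean CPM for all of them: 3592 ± 468 in brain 2 and 4290 ± 304 in brain 1 for the dense part, and 1533 ± 197 in brain 2 and 1699 ± 110 in brain 1 for the chromosome 11 group (SD, n = 4).

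The tallest cluster lay from 6792464 to 6792509, 46 nt wide, with all of its 230 tags over one base. Its libraries held 23, 32, 34 and 25 tags in brain 2, against 30, 29, 28 and 29 tags in brain 1, or 98.1 ± 9.63 CPM in brain 2 and 60.2 ± 3.62 CPM in brain 1 (SD, n = 4). Each library of brain 2 was above each of brain 1 in CPM, and the counts themselves were nearly level although the libraries differed in depth. One start and end was shared by 67.8% of its tags. With each position counted once per library 58 tags remained.

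The second cluster, from 6639140 to 6639245, held 8, 10, 14 and 12 tags in brain 2, against 32, 27, 27 and 16 tags in brain 1 (38.5 ± 10.7 CPM in brain 2 and 52.6 ± 12.4 CPM in brain 1). The third, from 6787738 to 6787853, held 15, 9, 17 and 8 tags in brain 2, against 26, 32, 14 and 17 tags in brain 1 (42.1 ± 13.2 CPM in brain 2 and 46.0 ± 17.4 CPM in brain 1). In both clusters the CPM ranges of the brains overlapped. The fourth, from 6623309 to 6623361, held 39.96 ± 12.2 CPM in brain 2 and 36.0 ± 9.38 CPM in brain 1. The fifth, from 6861910 to 6861944, was a stack in which 82.4% of 108 tags shared one position, with 3, 8, 9 and 12 tags in brain 2, against 18, 17, 21 and 20 tags in brain 1.

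The sixth cluster, from 6777307 to 6777462, was broader and more mixed, with 34 distinct 5′ ends among 161 tags (41.3 ± 8.13 CPM in brain 2 and 57.9 ± 18.1 CPM in brain 1). Near the 3′ edge, the seventh, from 6475077 to 6475128, had 25.2 ± 8.24 CPM in brain 2 and 37.6 ± 3.93 CPM in brain 1. The eighth, from 6543119 to 6543156, held 5, 15, 8 and 0 tags in brain 2, against 15, 16, 20 and 16 tags in brain 1. Library 4 of brain 2, the shallowest, had no tag there, although a count of 0 allows up to 3. The ninth, from 6760635 to 6760779, held 26.2 ± 11.1 CPM in brain 2 and 40.8 ± 5.55 CPM in brain 1, and the tenth, from 6781018 to 6781249, 50.5 ± 19.6 CPM in brain 2 and 49.2 ± 4.11 CPM in brain 1.

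**Figure D4:**
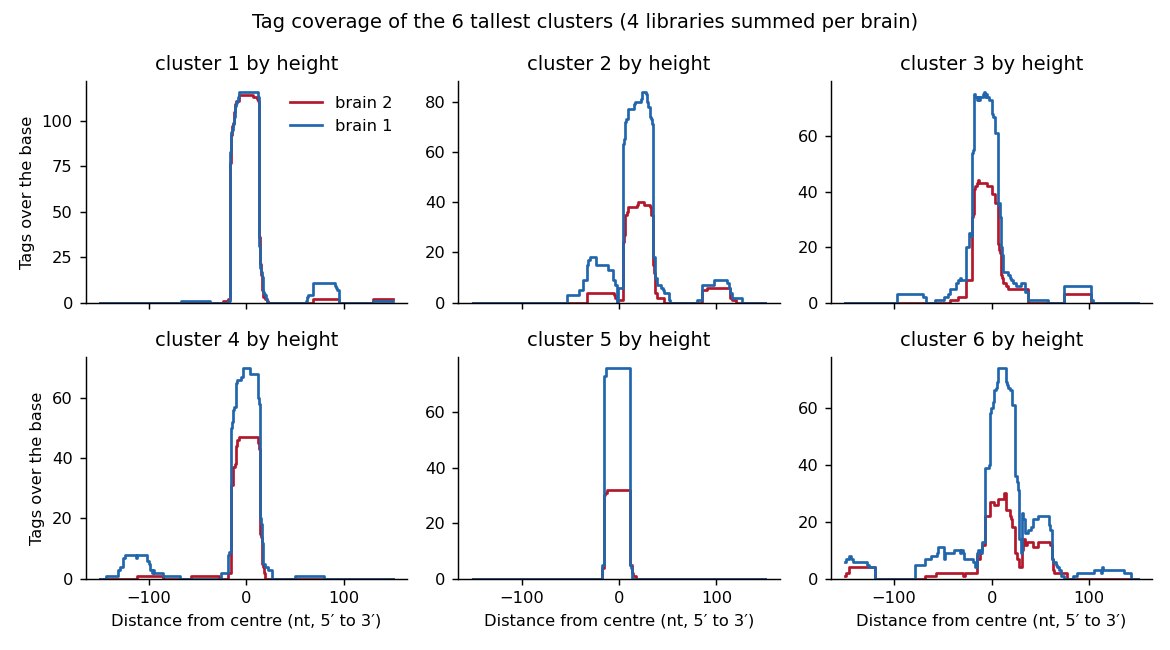
Tags over each base around the centres of the 6 tallest clusters, 4 libraries summed per brain, brain 2 in red and brain 1 in blue, with distance in nt running 5′ to 3′. In the tallest cluster the brains reach 114 tags in brain 2 and 116 in brain 1, and in each of the other 5 the highest point of brain 1, the deeper, is above that of brain 2.

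Clusters ranged from stacks of one position to spread-out sites. In 57 of 263 more than 50% of the tags shared one start and end. Clusters of 40 nt or narrower numbered 52 and had a median of 43.1% of tags on their fullest position, and the 38 clusters of 100 nt or wider had 21.7%. Repeated positions within a library made up 23.7% of the tags of the locus, against 11.5% in the whole series. They made up 16.04, 18.8, 24.9 and 30.8% in brain 2, against 23.8, 21.0, 26.7 and 25.5% in brain 1. In the dense part they made up 25.1%, against 18.3, 24.6 and 18.6% in the next largest linked groups, on chromosomes 16, 11 and 6. Whether these repeats are separate molecules was not tested. Since clusters are called on tag height, the share of repeats in a dense locus is not independent of how the locus was chosen.

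Outside the dense part the tallest cluster lay from 7106317 to 7106395 with a height of 66 and 13.0 ± 2.69 CPM in brain 2 and 28.6 ± 14.6 CPM in brain 1. The next, from 7310859 to 7310900, stood near the upstream start of the tagged stretch with 24.2 ± 10.2 CPM in brain 2 and 19.2 ± 9.06 CPM in brain 1 (height 65). The brains overlapped there. These clusters were picked after their values were seen.

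Many tag starts of the locus fell on the same nucleotide in both animals. Of the 2998 distinct tag 5′ ends in brain 2, 1159 (38.7%) coincided with a tag start of brain 1, which is 21.0% of the 5508 starts there. After a shift of 1 nt the number matched was 238 or 265, depending on the direction, and after a shift of 60 nt it was 56 or 69. Matched starts were not counted over the whole series or in other loci, so their share is not read as particular to Celf2. Clusters called in each brain alone gave 65 of height 10 or more in brain 2, of which 63 (96.9%, exact 95% interval 89.3 to 99.6%) overlapped one called in brain 1. In the other direction 64 of 180 clusters of brain 1 (35.6%) overlapped one of brain 2, which had fewer tags. On the rest of chromosome 2 the shares were 80.4% of 327 clusters of brain 2 and 43.2% of 604 clusters of brain 1. At a height of 5 or more, 84.7% of 203 Celf2 clusters of brain 2 overlapped one of brain 1, and 40.5% of 422 clusters of brain 1 overlapped one of brain 2. On the rest of chromosome 2 those shares were 65.1% of 1324 and 31.4% of 2743. None of these shares was matched for cluster height or tag density, in which Celf2 is high.

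Tags of both brains were present in 256 of the 263 clusters, and all 8 libraries in 92 (34.98%, against 23.8% of clusters in the whole series). In Celf2 that share rose with height, from 15 of 149 clusters at 10 to 19 to 20 of 21 at 50 to 99. A cluster with few tags can more easily miss a library, so the rise is not read as a pattern of the locus. Celf2 clusters were taller than those of the series, and the comparison was not matched for height. The 7 clusters without brain 2 tags held between 10 and 16 tags of brain 1, the fullest from 6833729 to 6833771. No cluster lacked brain 1 tags. The share of clusters with tags of a single brain was not counted over the whole series. Clusters are called on pooled tags, most of them from brain 1, so these counts are not read as a trait of Celf2. The 2 clusters called in brain 2 with none called in brain 1 had tags of both brains, and like those 7 they were looked up after the counts were known. From 6658019 to 6658052 there were 0, 6, 6 and 6 tags in brain 2, against 3, 1, 4 and 1 tags in brain 1, and from 6732012 to 6732081 there were 3, 0, 6 and 4 tags in brain 2, against 2, 2, 5 and 4 in brain 1.

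**Figure D5:**
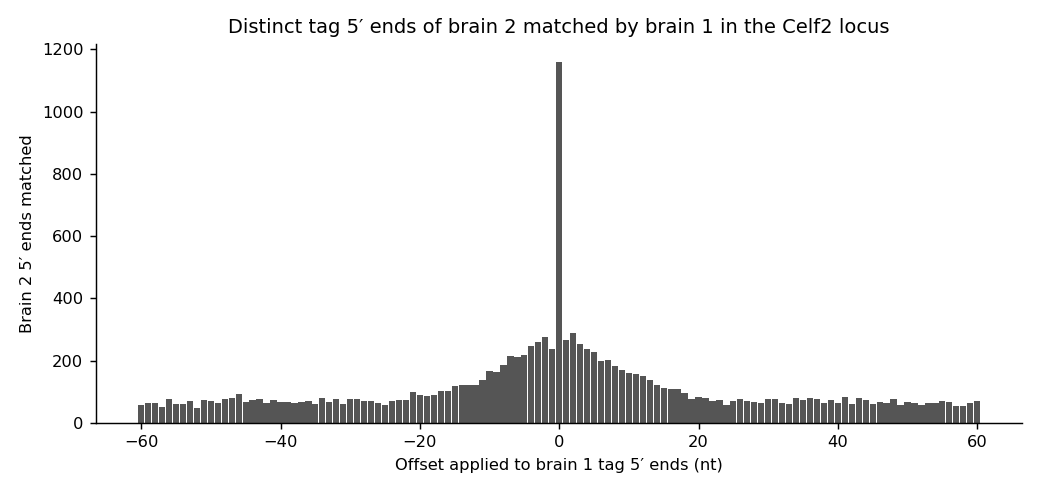
Number of distinct tag 5′ ends of brain 2 in the Celf2 locus that fall on a 5′ end of brain 1 after brain 1 is shifted by the offset on the horizontal axis, in nt. The bar at 0 reaches 1159, its neighbours at -1 and 1 reach 238 and 265, and a broad shoulder falls off within about 20 nt.

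The brains were compared site by site in strand-specific windows of 10 kb with limma voom, fitted over 3757 windows of the genome, with p-values adjusted by Benjamini and Hochberg. Of 58 Celf2 windows tested, 0 passed an adjusted p of 0.05, where 1.2% of all windows did (1.17% higher and 0.0266% lower in brain 2). Before adjustment, 5 Celf2 windows had a p under 0.05, against 10.4% of all windows. Of these, 4 were lower in brain 2, where 2.21% of all windows were, and 1 was higher, where 8.17% were. The log2 change was negative, that is lower in brain 2, in 41 of 58 (70.7%, median -0.18), against 50.3% of all windows (median -0.003). A window can pass the count filter through the 4 libraries of a single brain, so these directions are a description. In 7 Celf2 windows all libraries of brain 2 lay below all of brain 1 in CPM, and in 0 above, against 5.91% and 1.54% of all windows. The lowest adjusted p, 0.0713 (limma), belonged to the window from 6790001 to 6800000, which holds the tallest cluster. It held 206, 213, 244 and 245 CPM in brain 2, against 211, 196, 191 and 164 CPM in brain 1, a log2 change of 0.44 ± 0.12 (SE). The change was 0.25 (limma, adjusted p = 0.541) with total tags as scaling, 0.26 (adjusted p = 0.514) with repeated positions counted once and 0.38 (adjusted p = 0.476) with libraries of one letter summed.

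The window with most tags, from 6780001 to 6790000, held 14 clusters and 873 tags, at 271 ± 40.9 CPM in brain 2 and 289 ± 35.7 CPM in brain 1. It was followed by the window from 6770001 with 18 clusters and 727 tags (197 ± 29.8 CPM in brain 2 and 255 ± 33.1 CPM in brain 1) and that from 6750001 with 17 clusters and 708 tags (212 ± 66.0 CPM in brain 2 and 242 ± 46.0 CPM in brain 1). The window from 6700001, with 14 clusters and 554 tags, held 167 ± 33.9 CPM in brain 2 and 187 ± 21.5 CPM in brain 1. In these 4 windows the libraries of the brains overlapped, and none passed (limma, adjusted p between 0.742 and 0.977). Their CPM are given per total tags, while the fit used trimmed-mean scaling. In the fit the log2 changes were 0.08, -0.17, -0.04 and -0.03, in the order given, so the first was slightly higher in brain 2. Together with the window of the tallest cluster they are the 5 fullest of the locus.

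Only 17 Celf2 clusters had enough tags to be tested one by one, among 466 clusters in all. A cluster that passes this filter is a tall one. It can pass through the 4 libraries of brain 1 alone, and clusters were called on pooled tags, most of them from brain 1. The directions of change are thus a description and carry no test as a set. Of the 17, 0 passed in limma voom, where 1.29% of all clusters did (1.07% higher and 0.215% lower in brain 2), and 6 had an unadjusted p under 0.05, against 19.1% of all clusters. Of these, 5 were lower in brain 2, where 7.51% of all clusters were, and 1 was higher, where 11.6% were. The change was negative in 15 of 17, with a median of -0.30, against 48.7% of all clusters and a median of 0.02. The trimmed-mean scaling of this fit was computed over the 466 clusters, not over windows. With total tags as scaling 12 of 17 were negative, with a median of -0.15, against 37.3% of all clusters and a median of 0.16. The tallest cluster was the one with the lowest adjusted p, 0.115, at a log2 change of 0.52 ± 0.18 (SE, limma). In 1 of the 17, the tallest, all libraries of brain 2 lay above all of brain 1, as in 10.7% of all clusters, and in 0 below, as in 1.5%. With total tags as the scaling its log2 change was 0.70 and it passed (limma, adjusted p = 0.0341). It was 0.41 (adjusted p = 0.81) with no count filter and 0.55 (adjusted p = 0.622) with libraries of one letter summed, and over 13 alternatives the adjusted p ran between 0.0341 and 0.81. With repeated positions counted once, which left 58 of its 230 tags, the fit gave no value for it. The largest decrease among the 10 tallest, at 6543119, was -1.40 ± 0.57 (SE, adjusted p = 0.187), and without library 4 of brain 2, which had no tag there, it was -0.33.

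Tags of the locus were longer than those elsewhere, a measure that did not enter the choice of the locus. The deposited tags were 27 to 30 nt long. The mean length was 28.89 ± 0.0398 nt in Celf2 and 28.69 ± 0.0402 nt in the rest of the library (SD, n = 8 libraries), a difference of 0.201 ± 0.0319 nt that was positive in 8 of 8 libraries (two-sided exact permutation p = 0.00781, the smallest possible). The full 30 nt was reached by 52.5 ± 1.46% of Celf2 tags and 41.9 ± 1.89% of other tags in brain 2, and by 52.1 ± 1.61% of Celf2 tags and 43.8 ± 1.12% of other tags in brain 1. Set against the flanks and the other linked groups of 10 or more clusters instead, Celf2 tags were shorter by a small margin (-0.0521 nt, exact permutation p = 0.00781, n = 8).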

How the data were processed

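The authors deposited the positions and strands of mapped tags in one file, and each tag's name opens with a code for its library. The codes matched the sample titles and left 0 tags without a library. The score column held 0 in each row and was not used. Bowtie, mm8 and mm9 are named in the submitters' processing notes. Positions are given as mm9, which the locus rule names, and are counted from 1. The handling of repeated and multiply mapping reads is not given in these sources. Per the labels' protocols, reads opened with 4 degenerate bases and a G.

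Pooled tags of a strand were joined into clusters at an overlap of at least 1 nt. Single values per library were compared with exact permutation tests in Python 3.11.15 (scipy 1.17.1 for intervals). Windows and clusters were tested with limma 3.58.1 (voom, R 4.3.3). A feature had to reach, in any 4 of the 8 libraries, the CPM that 10 tags make at median depth, and 15 tags in all. This test was also run on simulated counts, drawn as independent libraries and fitted without the count filter. That run does not cover libraries that share an animal or a letter. Windows before the filter had 20 or more tags. Sites named are the 10 tallest clusters, the 5 fullest windows and any site past the threshold, and others are said to be chosen later. The locus, the lists and these rules were chosen with earlier results of these data known. The closing section gives the alternatives that moved these results and part of the others. Other genes of the Celf, muscleblind and Ptbp families are not analysed here, since no gene positions of the build were used. Library numbers did not pair the brains (correlations of same-numbered libraries between -0.03 and -0.01).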

Additional observations from a re-analysis of the deposited data

Results flagged for a closer look

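Within groups of 4 libraries, 3 single values lay far from the others of their group by Dixon's criterion, out of 42 groups examined, of which chance alone is set to pick about 1 in 20. The median tag position of library 2 of brain 2 was 679 kb from the upper bound, while the other libraries of brain 2 lay at 682 kb. In the cluster at 6639140, library 4 of brain 1 held 34.1 CPM, and the other 3 libraries of brain 1 held 58.7 to 58.9 CPM. In the window at 6750001, library 4 of brain 2 held 311 CPM, against 173 to 185 CPM in the other libraries of brain 2. Repeated positions made up 18.6% of the tags of that library, which is also the one with the fewest tags, and their part in the value was not tested.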

How the results depend on the processing

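The libraries came from 1 animal per brain, and 4 against 4 cannot give an exact permutation p below 0.0286. With trimmed-mean scaling the locus differed by -353 CPM (brain 2 minus brain 1), and with the tags of the other linked groups as denominator, added after the data were seen, by -5660 per 1000000 of those tags (exact permutation p = 0.0286 in both, n = 4). Leaving out 1 library gave -1207 to -808 CPM, with exact permutation p = 0.0286 without library 4 of brain 2 and up to 0.0857 for the others. The number of clusters was 642 at a height of 5, 114 at a height of 20 and 65 in brain 2 alone, where fewer tags were pooled. It was 274 at an overlap of 10 nt, 194 with repeated positions counted once and 180 in brain 1 alone. Tag length against the flanks and other linked groups turned to -0.0521 nt. In windows of 5 kb, 1 Celf2 window passed (6790001 to 6795000, log2 change 0.56, limma adjusted p = 0.039), and with total tags as scaling 1 cluster passed, the tallest. Total scaling moved the median log2 change of all windows to -0.21 and made 53 of 58 Celf2 windows negative, against 69.0% of all windows. In clusters it moved the median of all to 0.16, and 12 of 17 Celf2 clusters were negative, against 37.3%. All windows past the threshold numbered 8 under total scaling, against 45, and all clusters 15, against 6.

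The library numbers did not pair the brains. With the number as a replicate block, an exact paired permutation test gave p = 0.25 for the -961 CPM, where 4 pairs allow none below 0.125. In the limma fit with that block, 0 Celf2 windows and 0 clusters passed. Signs turned in 5 named sites whose changes were small and did not pass. The cluster at 6623309 was 0.15 with total scaling, 0.0297 with the replicate block, 0.00863 with libraries of one letter summed and -0.20 to 0.18 with 1 library left out. The cluster at 6781018 was 0.0475 with repeated positions counted once. The window at 6780001 was -0.11 with total scaling, -0.0607 with no count filter and -0.0359 to 0.12 with 1 library left out. The window at 6750001 was 0.12 with repeats once and -0.18 to 0.0153 with 1 left out, and that at 6700001 was 0.0137 with the block and -0.16 to 0.14 with 1 left out. The causes were not tested.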
